A study of Mus musculus with 59 samples.

Results

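The livers of mice given the highest dose of a polycyclic aromatic hydrocarbon were compared with the livers of mice given the vehicle alone, over 10 arrays (5 against 5) out of 59 in the series. The members were chosen by their labels: liver of adult male Muta™Mouse, aged about 16 weeks, that received 100 mg/kg-bw/day in olive oil by oral gavage, or olive oil only, for 28 days, with tissue taken 72 h after the last dose. Muta™Mouse is a strain that carries a bacterial reporter transgene for mutation assays in every animal, treated or not. The labels conflict on the compound, since titles and the treatment text name benzo(b)fluoranthene (BbF) and an exposure label names benz(a)anthracene, and it is called BbF here. Each liver RNA (the left lobe, 1 mouse per array) was labelled with Cy5 and hybridized with a Cy3-labelled reference RNA pooled from mouse cell lines, so that each value below is a log2 ratio of liver to reference. Livers of mice given 25 (low) or 50 (medium) mg/kg-bw/day, 5 each, were in the same statistical fit.

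As background, polycyclic aromatic hydrocarbons enter hepatocytes and bind the aryl hydrocarbon receptor (AhR), which raises transcription of the Cyp1 enzymes that in turn oxidize the compounds, in part to products that bind DNA. Damaged DNA stabilizes p53, whose target genes arrest the cell cycle, repair DNA or start apoptosis. Adult hepatocytes rarely divide, express sex-dependent genes under the pulsatile growth hormone of males, and follow a circadian clock whose output factors rise and fall within the day.

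The arrays lay on 3 slides, and this bears on every value. The third slide, scanned on another day, had weak Cy5: 10.75 to 12.93% of its probes were well above background in Cy5, against 37.1 to 46.2% on the other slides, and the SD of its log2 ratios across probes was 0.56 to 0.62 against 1.05 to 1.09. High-dose mice 16 and 17 shared the second slide with vehicle mice 1 and 2, whereas high-dose mice 18, 19 and 20 shared the third slide with vehicle mouse 5 only, and vehicle mice 3 and 4 were on the first slide, which held no high-dose liver. Slide was therefore a block in the fit over all 20 liver arrays, and changes or values within the second and the third slide are given for the main genes and lists. The hepatocyte markers were as the tissue label says: the mean log2 ratio of the 10 markers was at least 6.01 in every vehicle and high-dose liver.

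At the high dose 120 of 37163 genes were differentially expressed (DEGs, 0.323% of genes tested), with 90 higher (0.242%) and 30 lower (0.0807%) than in vehicle livers. Genes counted as DEGs when limma's p, adjusted by Benjamini-Hochberg over all probes, was at most 0.05 and the change at least 1.5-fold. The median fold change was 1.86 among the increased and 1.70 among the decreased genes, and 41 DEGs changed 2-fold or more. Within the slides 119 of the 120 had the same sign on the second and on the third slide, where the median absolute change was 1.08 and 0.56 (log2), and 93 changed more on the second. The number of DEGs rested on few animals: it was 57 without vehicle mouse 1, 49 without vehicle mouse 2, 47 without high-dose mouse 17 and 252 without vehicle mouse 5, and without the slide block only Nab2 and Gas6 remained (2 genes, 0.00538%) and 15 of the 120 DEGs changed sign. Of the 120 DEGs, 41 were well above background in only 2 of the 5 high-dose livers, and 66 in all 5. More than 1 probe was present for 39 of the DEGs, and another probe also passed for 8 of these. The mice limit the precision. The p-values rest on the spread that the fit leaves among all its liver arrays, low- and medium-dose livers included. Each array held a different mouse, so spread between mice and spread between arrays cannot be told apart. A change that differs between slides also adds to this spread.

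**Figure D1:**
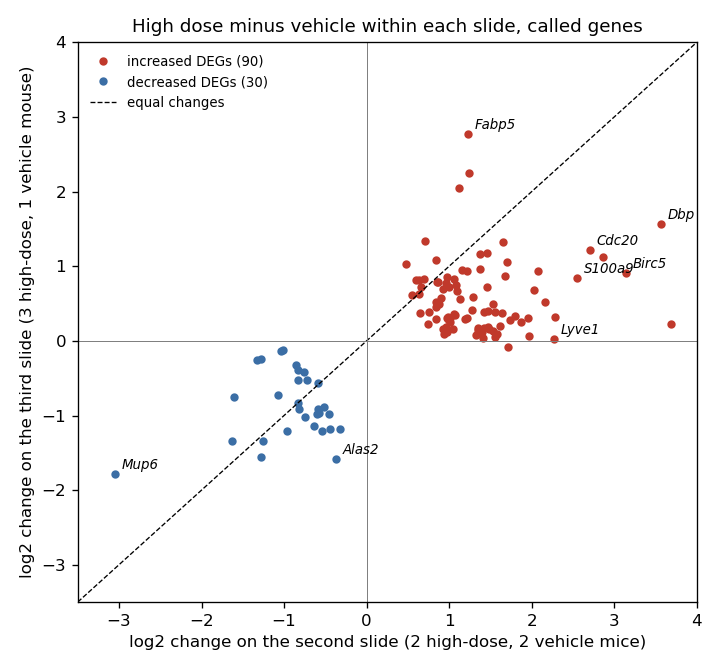
Change of each of the 120 DEGs (log2, high dose minus vehicle) on the second slide (horizontal axis) and on the third slide (vertical axis); red points rose and blue points fell in the fit, and the dashed line marks equal changes. Most points lie between the horizontal axis and the dashed line, and 93 of the 120 genes changed more on the second slide.

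Genes of cell division had the largest shift of the lists examined. Over the 28 lists, 25 of 617 genes were DEGs (4.05%), against 0.323% of all genes tested. The lists were chosen with earlier results of these data known, so this contrast is a description and not a test. Of the 37163 genes tested, 14511 were above background in no vehicle or high-dose liver. Among the 12 largest increases of named DEGs, Spc25 (a kinetochore subunit), Birc5 (survivin, of the chromosomal passenger complex), Cdc20 (activator of the anaphase-promoting complex) and Cdca3 act in mitosis. Ccnd1 (cyclin D1), also among them, drives entry into the cycle. Of 24 mitosis genes measured, 3 were DEGs (Ccnb2, Cdc20 and Birc5), all increased, and 24 of 24 changes were positive with a median of 0.88 (log2); over all genes tested 18452 of 37163 changes were positive and the median was -0.001. The list's median was 1.57 within the second and 0.39 within the third slide.

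The values differed between the high-dose animals. The log2 ratio of Cdc20 was -4.42 and -4.02 in vehicle mice 1 and 2 and -2.59 and -0.44 in high-dose mice 16 and 17 on the second slide. On the third slide it was -1.63 in vehicle mouse 5 and -0.98, 0.70 and -0.97 in high-dose mice 18, 19 and 20, and vehicle mice 3 and 4 on the first slide were at -4.20 and -3.30. The high-dose livers were thus above the vehicle livers of their own slide, with mouse 17 and mouse 19 highest, while the raw groups overlapped across slides. The fitted change of Cdc20 was 1.78 ± 0.38 (SE; 3.43-fold, adjusted p = 0.0313 in limma), and leaving out mouse 17 brought it to 1.28 (adjusted p = 0.121). Birc5 changed by 1.89 ± 0.38 (limma adjusted p = 0.0204), Spc25 by 1.89 ± 0.33 (adjusted p = 0.00764), Cdca3 by 1.27 ± 0.30 (adjusted p = 0.0467) and Ccnb2 (cyclin B2) by 1.11 ± 0.25 (adjusted p = 0.0438). Other probes of Birc5 changed by 0.55 and 0.39, and neither passed.

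Of these 5 genes only Spc25 remained a DEG under each omission of 1 vehicle or high-dose mouse. Mki67, Top2a and Cdk1, the first members of the list, were not DEGs (1.07, 0.46 and 0.30, limma adjusted p = 0.0914, 0.289 and 0.586), and Cdk1 was at -0.01 without mouse 17. All 24 mitosis genes were higher in mouse 17 than in mouse 16, by a median of 1.82 (log2), against 54.4% of all genes, and the list had 0 DEGs without mouse 17, vehicle mouse 1 or vehicle mouse 2. The mean log2 ratio of the list was -3.22 and -3.02 in vehicle mice 1 and 2, -2.53 in mouse 16 and -1.04 in mouse 17. On the third slide it was -1.04 in vehicle mouse 5 and between -0.78 and -0.47 in the high-dose mice, so that every high-dose liver was above every vehicle liver of its own slide. The highest adjusted p over these omissions was 0.0952 for Birc5, 0.152 for Cdca3 and 0.14 for Ccnb2, each without vehicle mouse 2.

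The log2 ratio of Ccnd1 was -3.05 and -2.70 in vehicle mice 1 and 2 against -1.17 and -0.43 in high-dose mice 16 and 17, and -1.32 in vehicle mouse 5 against -0.43, -0.41 and -0.31 in mice 18, 19 and 20. The first-slide vehicle livers were at -2.74 and -2.47, and no high-dose value reached down to a vehicle value. The change was 1.52 ± 0.18 (2.86-fold, limma adjusted p = 0.000199), and Ccnd1 was a DEG without any 1 of the vehicle or high-dose mice. It was the only DEG among 29 genes of DNA replication and the G1 to S transition, whose median was 0.27 with 24 positive changes; Pcna, the sliding clamp of the polymerase, was at 0.28 (adjusted p = 0.413). Tubb6, a beta-tubulin, changed by 1.29 ± 0.25 (adjusted p = 0.0161). Tubb6 was not a DEG without vehicle mouse 1 (adjusted p = 0.064).

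Of the 5 DEGs in the mitosis and clock output lists, whose changes were all positive, the promoters of the 3 that held a motif searched for their own list are printed, with that motif in capitals. The windows of the other 2 held none of these: Birc5 had no CCAAT and no TTTGAA, and Dbp had no CACGTG. Each run is the 250 bases before the annotated start (RefSeq, GRCm38.p6), read 5′ to 3′ on the gene's strand. Tef had 2 starts listed, and only the window of the first is printed and described.
Ccnb2, chr9:70421555-70421804, minus strand: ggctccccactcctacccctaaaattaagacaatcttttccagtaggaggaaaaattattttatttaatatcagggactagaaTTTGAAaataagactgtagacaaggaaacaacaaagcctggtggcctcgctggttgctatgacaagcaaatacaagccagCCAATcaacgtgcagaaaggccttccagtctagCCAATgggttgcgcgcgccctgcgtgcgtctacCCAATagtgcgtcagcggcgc
Cdc20, chr4:118437344-118437593, minus strand: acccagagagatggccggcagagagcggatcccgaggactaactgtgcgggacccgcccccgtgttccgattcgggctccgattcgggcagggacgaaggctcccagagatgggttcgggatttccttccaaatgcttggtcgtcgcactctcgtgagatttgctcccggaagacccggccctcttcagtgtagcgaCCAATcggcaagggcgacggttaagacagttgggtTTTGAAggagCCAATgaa
Tef, chr15:81802423-81802672, plus strand: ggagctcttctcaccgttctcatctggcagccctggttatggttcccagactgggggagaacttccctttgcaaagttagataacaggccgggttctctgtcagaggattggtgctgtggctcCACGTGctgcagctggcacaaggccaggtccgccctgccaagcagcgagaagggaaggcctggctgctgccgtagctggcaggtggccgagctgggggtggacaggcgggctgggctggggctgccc
In Ccnb2 and Cdc20 the capitals mark CCAAT (the box bound by NF-Y) and TTTGAA (the cell cycle genes homology region, CHR), and in Tef they mark CACGTG (the E-box bound by CLOCK and BMAL1), each searched on both strands, with no overlap between the capitals. The window of Tef also held 1 CCAAT, left in lower case. CCAAT was in 20 of 22 promoters of mitosis genes (90.9%) against 33.9% of all 32841 promoters, and TTTGAA in 10 of 22 (45.5%) against 16%. The E-box was in 5 of 13 promoters of the clock output and negative arm list (38.5%) against 6.02% of all. The genes of each list with an entry were 20 of 24 and 11 of 14. Among the increased DEGs, 59 of 90 had an entry, and CCAAT was in 44.9%, TTTGAA in 12.8% and CACGTG in 6.41% of their 78 promoters. In the 19 promoters of decreased DEGs (15 of 30 genes with an entry) the shares were 42.1% for CCAAT, 26.3% for TTTGAA and 0% for CACGTG. The same CCAAT box was also in 76.9% of the clock output promoters. The core GCGTG that AhR binds was in 72.7% of the mitosis, 84.6% of the clock output, 43.6% of the increased and 21.1% of the decreased promoters, against 28.2% of all. A match is a description of the letters in this window.

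Targets of p53 also shifted upward, by less than some other lists. Of 30 targets measured 4 rose and 0 fell, where 0.242% of all genes tested rose and 0.0807% fell. The 4 were Cdkn1a (p21, which inhibits cyclin-dependent kinases), Mdm2 (the ubiquitin ligase that restrains p53), Phlda3 (a repressor of Akt) and Aen (an apoptosis-enhancing nuclease). The median of the list was 0.28, with 26 of 30 changes positive, 0.43 within the second slide and 0.08 within the third. The list's mean log2 ratio was -0.64 and -0.57 in vehicle mice 1 and 2 against -0.25 and -0.01 in mice 16 and 17, and -0.06 in vehicle mouse 5 against 0.01 to 0.09 in the other high-dose mice, so the groups were separate within each slide but by little on the third. DEGs of this list numbered 7 without the third slide and 3 without mouse 17.

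The log2 ratio of Phlda3 was -2.81 and -2.63 in vehicle mice 1 and 2 against -1.59 and -1.12 in mice 16 and 17. On the third slide it was -1.56 in vehicle mouse 5 against -0.79, -0.79 and -0.19, and the first-slide vehicle livers were at -2.80 and -2.67. Every high-dose liver was above the vehicle livers of its slide, and the change was 1.16 ± 0.14 (2.24-fold, limma adjusted p = 0.000196). For Mdm2 the values were -1.12 and -1.13 against -0.47 and -0.51 on the second slide, -0.52 against -0.13, 0.36 and 0.10 on the third, and -1.06 and -0.96 on the first. The groups did not overlap, and Mdm2 changed by nearly the same amount on the second (0.64) and the third slide (0.63), with a fitted change of 0.69 ± 0.09 (1.62-fold, limma adjusted p = 0.000831).

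Cdkn1a rose from -2.73 and -2.64 in vehicle mice 1 and 2 to -1.24 and -1.06 in mice 16 and 17, and was at -0.77 in vehicle mouse 5 against -0.40, -0.31 and -0.11 and at -3.21 and -2.96 on the first slide. Every high-dose liver was above the vehicle livers of its slide. Its change of 1.24 ± 0.17 (limma adjusted p = 0.000831) came from a probe that was above background in only 2 of 5 high-dose livers, and another probe of the gene changed by 0.20. Aen changed by 0.86 ± 0.16 (adjusted p = 0.0129), with 0.86 on the second and 0.79 on the third slide. Ccng1 (cyclin G1) was not a DEG (0.62 ± 0.19, adjusted p = 0.149), with 1.04 on the second and -0.19 on the third slide. No DEG was among 35 DNA repair genes, whose median was 0.11 with 29 changes positive. Aen was not a DEG without mouse 17 (adjusted p = 0.0658).

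**Figure D2:**
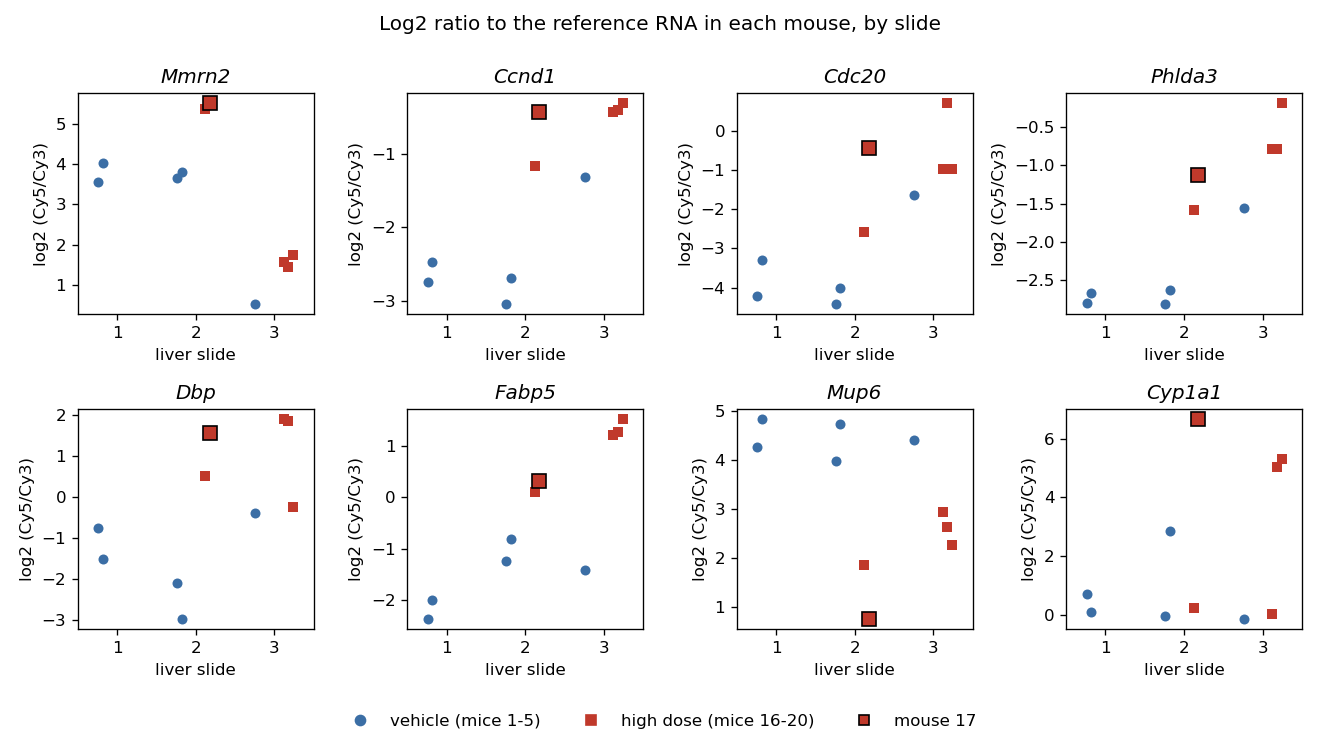
Log2 ratio of liver to reference RNA (vertical axis) for 8 genes in each vehicle liver (blue circles) and high-dose liver (red squares), placed by slide (horizontal axis); the black outline marks mouse 17. Within the second and the third slide the high-dose livers lie above the vehicle livers for Mmrn2, Ccnd1, Cdc20, Phlda3 and Fabp5 and below them for Mup6, while Cyp1a1 is high in 3 high-dose mice and near 0 in the other 2.

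The AhR list held no DEG, although its best-known member varied widely between animals. Cyp1a1, the monooxygenase that AhR induces most, was at 0.24 in mouse 16 and 0.03 in mouse 18 but at 6.68, 5.03 and 5.29 in mice 17, 19 and 20. Among the vehicle livers it was between -0.14 and 0.72 in mice 1, 3, 4 and 5 and at 2.84 in mouse 2, and it stayed between -0.13 and 0.21 in the 10 low- and medium-dose livers. High values were thus present in 3 of 5 high-dose livers and, less high, in 1 vehicle liver, and the change of 2.75 ± 0.91 did not pass (limma adjusted p = 0.193). The probe was above background in 2 vehicle and 3 high-dose livers. Of the other 9 targets, Cyp1a2 was at 0.26 (adjusted p = 0.589) and Cyp1b1 at 0.42 (adjusted p = 0.546), and the 10 genes had a median of 0.19 with 7 positive.

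The clock output list had the largest median after the mitosis list. Of 14 genes of the clock output and negative arm 2 rose and 0 fell, where 0.242% of all genes tested rose. All 14 changes were positive and the median was 0.67, with 1.13 on the second and 0.22 on the third slide. Dbp and Tef are sister bZIP transcription factors that carry the clock's rhythm to metabolic genes. Dbp had the largest increase of the named DEGs, from log2 ratios of -2.10 and -2.98 in vehicle mice 1 and 2 to 0.50 and 1.55 in mice 16 and 17. It was at -0.39 in vehicle mouse 5 against 1.91, 1.85 and -0.24 in mice 18, 19 and 20, and at -0.75 and -1.52 on the first slide. Mouse 20 was close to the vehicle liver of its slide, and the other high-dose livers were well above.

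The change of Dbp was 2.62 ± 0.52 (6.16-fold, limma adjusted p = 0.0194), and its low- and medium-dose changes of 2.09 and 2.37, against the same vehicle livers, were nearly as large. Tef changed by 1.13 ± 0.21 (adjusted p = 0.0149), with no overlap between the groups, and carries the E-box printed above, while the same window of Dbp held no match. Per1 and Nr1d1 (REV-ERBα), repressors within the clock, were at 0.80 (adjusted p = 0.392) and 0.76 (adjusted p = 0.28). In the positive arm 0 of 7 genes passed, with a median of -0.14; Arntl (BMAL1) was at -0.78 (adjusted p = 0.14), Npas2 at -0.14 and Clock at -0.14. The clock list held 0 DEGs without vehicle mouse 1, vehicle mouse 2 or high-dose mouse 17, and 5 without vehicle mouse 5. These genes vary with the hour of sampling, which the labels do not give; its part in the result was not tested. The adjusted p of Dbp was 0.0944 without vehicle mouse 2, and that of Tef was 0.0711 without mouse 17.

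**Figure D3:**
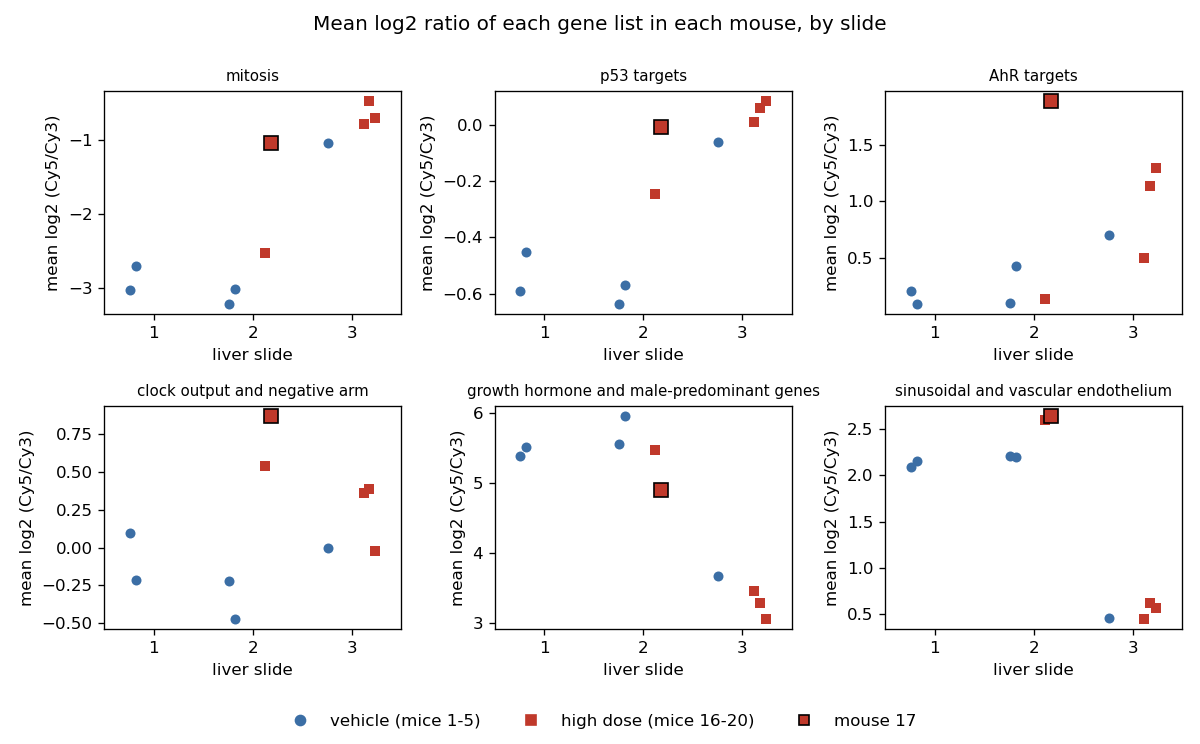
Mean log2 ratio of the members of 6 gene lists (vertical axis) in each vehicle liver (blue circles) and high-dose liver (red squares), placed by slide (horizontal axis), with mouse 17 outlined in black. Within each slide the high-dose livers are higher for the mitosis and p53 lists, mouse 17 is highest for the AhR and clock lists, and the male-predominant and endothelial lists are lower on the third slide in both groups.

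The increase with the lowest p was that of an endothelial gene. Mmrn2, an extracellular matrix protein of endothelium, was at 3.65 and 3.81 in vehicle mice 1 and 2 against 5.37 and 5.51 in mice 16 and 17. On the third slide it was at 0.52 in vehicle mouse 5 against 1.56, 1.44 and 1.76, and on the first slide at 3.56 and 4.02. The high-dose livers of each slide lay above its vehicle livers, while across slides the raw ranges overlapped and all values of the third slide were below those of the others. The change was 1.54 ± 0.13 (2.90-fold), with the lowest adjusted p of all probes (7.92e-07 in limma), and Mmrn2 was a DEG under each omission of 1 vehicle or high-dose mouse; without the slide block it was 0.01.

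Lyve1, a receptor of lymphatic and sinusoidal endothelium, rose by 1.27 ± 0.27 (limma adjusted p = 0.0277), by 2.27 on the second slide and 0.02 on the third, and was above background in 2 of 5 high-dose livers. Of the 14 endothelial markers 1 was a DEG, 13 changes were positive and the median was 0.20, and Stab2 and Pecam1 were at 0.14 and 0.12. The mean log2 ratio of these markers was 2.21 and 2.20 in vehicle mice 1 and 2 against 2.60 and 2.64 in mice 16 and 17, and 0.46 in vehicle mouse 5 against 0.44 to 0.62. In whole liver, more cells of a type and more RNA per cell cannot be told apart. Without mouse 17 the adjusted p of Lyve1 was 0.123.

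Fabp5, an intracellular fatty acid binding protein, changed by 1.23 on the second and 2.77 on the third slide. Fabp5 was at -1.23 and -0.82 in vehicle mice 1 and 2 against 0.09 and 0.31 in mice 16 and 17, and at -1.43 in vehicle mouse 5 against 1.22, 1.28 and 1.53. With first-slide values of -2.380 and -2.001 the groups did not overlap, and the change was 2.05 ± 0.35 (4.15-fold, limma adjusted p = 0.00764), while the difference between the slides did not pass (adjusted p = 0.624). Cd36, a fatty acid transporter, was the only DEG of 31 PPARα and fatty acid oxidation genes (1.08 ± 0.24, adjusted p = 0.0348), and it was at 1.84 in mouse 17 against 0.89 in mouse 16. Cd36 changed by 1.80 on the second and 0.33 on the third slide, and was above background in 2 of 5 high-dose livers. Lists of cholesterol synthesis, fatty acid synthesis and bile acid genes held no DEG, with medians of -0.06, 0.07 and -0.11. Slc10a2, a bile acid transporter outside these lists, was a DEG that rose by 0.84 ± 0.13 (adjusted p = 0.0026). Without mouse 17 the adjusted p of Cd36 was 0.148.

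Nab2, a corepressor of EGR transcription factors, and Gas6, the ligand of the TAM receptor kinases, were the DEGs that did not need the slide block. Nab2 was at -1.42 and -1.33 in vehicle mice 1 and 2 against 0.05 and -0.23 in mice 16 and 17, at -0.56 in vehicle mouse 5 against 0.13, -0.05 and 0.02, and at -1.50 and -1.22 on the first slide. All high-dose livers were above all vehicle livers, with a change of 1.07 ± 0.12 (limma adjusted p = 0.000196), while another Nab2 probe changed by 0.03. It was the only DEG of 22 immediate early genes; Egr1 was at 1.38 (adjusted p = 0.0874). Gas6 was at 0.34 and 0.12 against 1.21 and 1.70 on the second slide, at 0.34 against 1.23, 1.35 and 1.26 on the third and at 0.13 and 0.75 on the first, again with no overlap, and changed by 1.01 ± 0.14 (2.01-fold, adjusted p = 0.000967). It was the only DEG of 31 apoptosis regulators.

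Among the neutrophil markers and the MHC class II genes, S100a9 and Cd74 rose. S100a9, a calcium-binding protein of neutrophils, was at 1.45 and 1.26 in vehicle mice 1 and 2 against 3.94 and 3.86 in mice 16 and 17, and at -0.04 in vehicle mouse 5 against 0.21, 1.33 and 0.87, with 1.84 and 1.93 on the first slide. The high-dose livers were above the vehicle livers of their slide, and the raw groups overlapped across slides. The change was 1.95 ± 0.27 (limma adjusted p = 0.000967), but its partner S100a8 was at 0.39 (adjusted p = 0.237) and no other of the 9 neutrophil markers was a DEG, with a list median of 0.05. Cd74, the invariant chain of MHC class II, rose by 1.11 ± 0.24 (adjusted p = 0.0302) as the only DEG of 9 class II genes, of which 8 had positive changes with a median of 0.46, 0.85 on the second and 0.27 on the third slide, and 6 had an unadjusted p under 0.05. H2-Aa, H2-Ab1 and H2-Eb1 were at 0.73, 0.70 and 0.77, none a DEG. The Kupffer cell, T and NK cell, and B cell markers held no DEG, and their medians were 0.07, -0.03 and 0.06. The class II and the Kupffer lists were both higher in mouse 17 than in mouse 16 for most members (8 of 9 and 10 of 11), and their part in the result was not tested. Cd74 was not a DEG in 7 of 10 omissions of 1 mouse, with an adjusted p of up to 0.118 (without mouse 17).

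Among the DEGs with a symbol the largest decrease was that of Mup6, and Mup5, Mup2 and Hsd3b5 were among the 12 largest named decreases. The lowest change of all genes tested was -2.86, in a male-predominant gene that was not a DEG. Mup6, one of the major urinary proteins that male liver secretes as pheromone carriers, was at 3.97 and 4.72 in vehicle mice 1 and 2 against 1.85 and 0.75 in mice 16 and 17. It was at 4.40 in vehicle mouse 5 against 2.94, 2.64 and 2.27, and at 4.27 and 4.84 on the first slide. No high-dose value reached the vehicle range, and Mup6 fell by 2.18 ± 0.30 on the log2 scale (4.54-fold, limma adjusted p = 0.000904). Mup5 fell by 0.90 ± 0.16 (adjusted p = 0.00869) and Mup2 by 0.79 ± 0.12 (adjusted p = 0.00325). Mup genes are near-identical copies, so which of them a probe measured is uncertain.

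Hsd3b5, a male-specific steroid dehydrogenase, was at 5.23 and 5.64 in vehicle mice 1 and 2, 5.27 in mouse 16 and 3.08 in mouse 17, and at 3.31 in vehicle mouse 5 against 1.36, 2.18 and 2.37. Mouse 16 was within the vehicle range and the other 4 high-dose livers were below the vehicle livers of their slide, for a fall of 1.28 ± 0.26 on the log2 scale (limma adjusted p = 0.0191). Of 26 growth hormone and male-predominant genes 2 fell (Hsd3b5 and Mup5) and 0 rose, where 0.0807% of all genes tested fell. In this list 3 changes were positive and the median was -0.41, with -0.40 on the second and -0.40 on the third slide. At the medium dose, against the same vehicle livers, the median was -0.03. Igf1 and Cyp4a12a, both under growth hormone, were at -0.29 (adjusted p = 0.293) and -1.12 (adjusted p = 0.229), and Socs2 at 0.78 (adjusted p = 0.363). The 19 female-predominant genes held no DEG, 15 changes were positive and the median was 0.16, with 0.39 on the second and 0.08 on the third slide. Hsd3b5 was not a DEG without vehicle mouse 2 (adjusted p = 0.076) or without mouse 17 (adjusted p = 0.0658).

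Of 29 genes of amino acid catabolism and the urea cycle measured, 3 fell and 0 rose, where 0.0807% of all genes tested fell. They were Asl (argininosuccinate lyase of the urea cycle), Tat (tyrosine aminotransferase) and Gldc (of the glycine cleavage system). In the list 3 changes were positive and the median was -0.26. The fitted falls on the log2 scale were 0.67 ± 0.12 for Asl (limma adjusted p = 0.00932), 0.71 ± 0.16 for Tat (adjusted p = 0.0463) and 0.77 ± 0.12 for Gldc (adjusted p = 0.00352). Gldc was at 6.36 and 6.48 in vehicle mice 1 and 2 against 5.77 and 5.80 in mice 16 and 17, and at 3.21 in vehicle mouse 5 against 2.31, 1.76 and 2.17, so it was lower on both slides. The list held 0 DEGs without the third slide, where its median was -0.53 against -0.21 on the second. Cps1, Arg1 and Otc, of the urea cycle, were at -0.40, -0.29 and -0.55, none a DEG. All 10 hepatocyte markers had negative changes with a median of -0.24 and no DEG, and their mean was 6.79 and 6.95 in vehicle mice 1 and 2 against 6.50 and 6.53 in mice 16 and 17, and 6.54 in vehicle mouse 5 against 6.01 to 6.19; its part in these decreases was not tested. Tat was not a DEG in 9 of 10 omissions of 1 mouse (adjusted p up to 0.141, without vehicle mouse 5), and Asl was under 1.5-fold without vehicle mouse 5 (-0.57).

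Of the conjugating and retinoid enzymes, Aldh1a1, which makes retinoic acid, had the lowest p. It was at 6.85 and 6.76 in vehicle mice 1 and 2 against 6.01 and 6.11 in mice 16 and 17, at 6.196 in vehicle mouse 5 against 5.19, 5.44 and 4.89, and at 7.00 and 7.02 on the first slide. The groups did not overlap, with a fall of 0.92 ± 0.13 on the log2 scale (1.89-fold, limma adjusted p = 0.000967). It was the only DEG of 24 retinoid genes (median -0.04), and Gsta3, a glutathione transferase, was the only DEG of 30 phase II genes (it fell by 0.64 ± 0.14, adjusted p = 0.0337, and the list median was -0.16). Ugt1a10, a conjugating enzyme outside that list and picked after its values were seen, was a DEG that rose by 0.86 ± 0.19 (adjusted p = 0.0314). Its change was 1.10 on the second and 0.67 on the third slide, and another probe of the gene changed by 0.22. No DEG was among 21 CAR and PXR targets (median 0.18), and among 18 NRF2 targets only Osgin1 rose (0.89 ± 0.21, adjusted p = 0.0467, with a list median of 0.14). Gsta3 was not a DEG in 6 and Osgin1 in 9 of 10 omissions of 1 mouse, with an adjusted p of up to 0.101 (without vehicle mouse 5) and 0.137 (without vehicle mouse 1).

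The other named decreases were scattered over functions. Csad, which makes hypotaurine, fell by 1.09 ± 0.22 on the log2 scale (limma adjusted p = 0.0183), Hnf4aos, an antisense transcript of the Hnf4a locus, by 1.17 ± 0.23 (adjusted p = 0.0194), and Alas2, the erythroid haem synthesis enzyme, by 0.86 ± 0.18 (adjusted p = 0.0279). Hnf4aos was above background in 5 vehicle and 2 high-dose livers. Alas2 was the only DEG of 9 erythroid markers. Pax2, a developmental transcription factor, fell by 1.497 ± 0.291 (adjusted p = 0.0172) on a probe that read 5.35 in mouse 16 and 2.76 in mouse 17, and its other probes did not move likewise, at -0.20 and 0.03. Oasl1 fell by 0.79 ± 0.14 (adjusted p = 0.0121) as the only DEG of 23 interferon-stimulated genes, whose median was -0.04. Omitting 1 mouse brought the adjusted p to 0.0847 for Csad and 0.0906 for Hnf4aos (mouse 17), 0.0968 for Alas2 (vehicle mouse 5) and 0.0788 for Pax2 (vehicle mouse 2).

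Among WNT pathway and pericentral genes, Sp5, a WNT target, and Rhbg, an ammonia transporter of the hepatocytes around central veins, rose by 1.01 ± 0.20 (limma adjusted p = 0.0183) and 0.93 ± 0.14 (adjusted p = 0.0026), and the median of the 20 genes was 0.25. Sp5 changed by 1.74 on the second and 0.28 on the third slide, a slide difference that passed (adjusted p = 0.0394), and was above background in 2 of 5 high-dose livers. Rhbg rose by 0.97 on the second and 0.86 on the third slide but was at -0.61 without the slide block. Gpr146, a G-protein-coupled receptor, rose by 1.13 ± 0.16 (adjusted p = 0.00128), by 1.16 on the second slide and 0.95 on the third. Another probe of Gpr146 changed by 0.01. Of the 28 lists, 12 held no DEG, among them acute phase proteins, ER stress genes, MHC class I genes and extracellular matrix genes with medians of 0.06, -0.11, 0.01 and 0.03. The markers of stellate cells, cholangiocytes and the other tissues that a dissection could carry along (pancreas, adipose, lung or forestomach) held none either, with medians of -0.03, -0.04 and 0.01. Without vehicle mouse 2 the adjusted p of Sp5 was 0.0874.

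**Figure D4:**
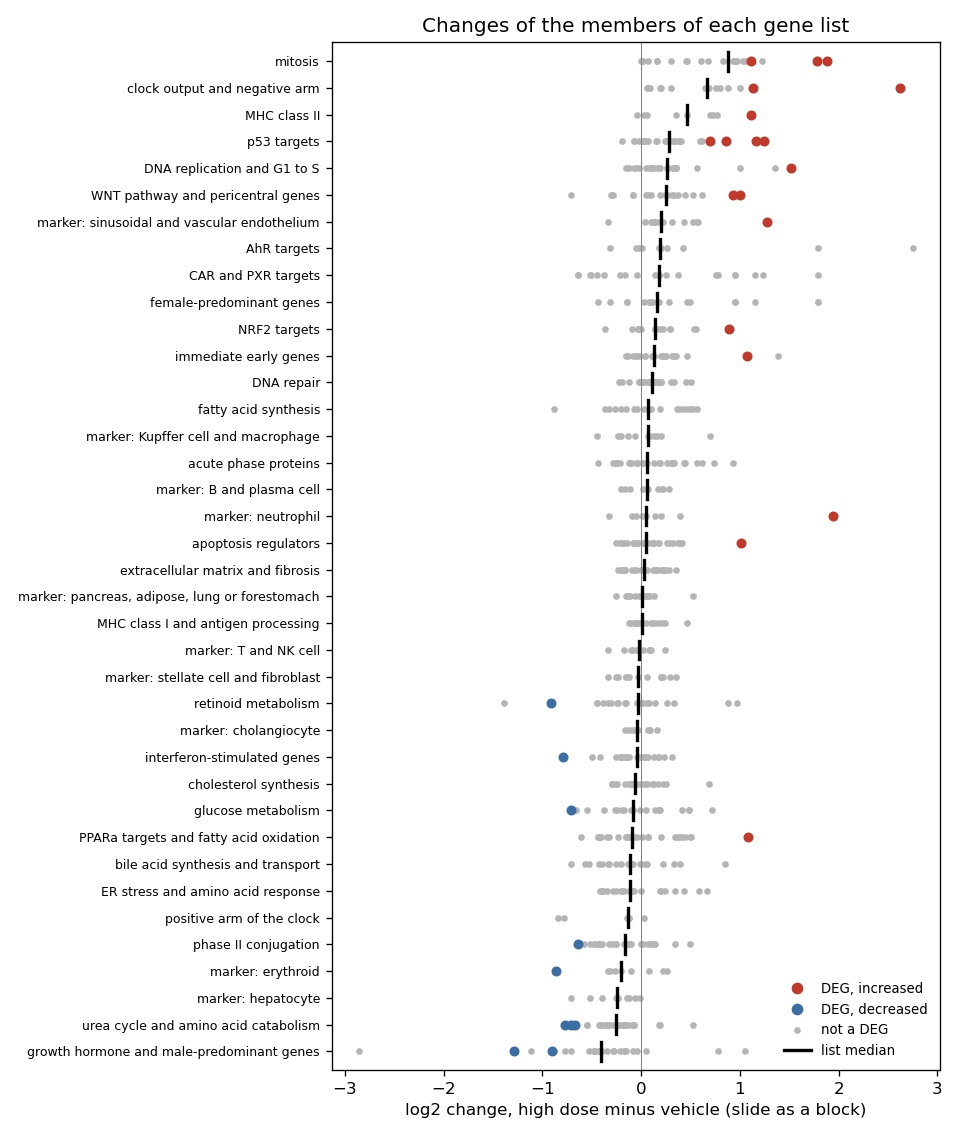
Change of each member of the 28 gene lists and 10 marker lists (horizontal axis, log2, high dose minus vehicle), 1 list per line; red and blue points are DEGs that rose or fell, grey points are not DEGs, and black bars are list medians. The medians run from -0.41 (growth hormone and male-predominant genes) to 0.88 (mitosis).

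Whether the high dose differed from the medium dose was asked directly. It gave 0 DEGs in limma, with a lowest adjusted p of 0.369 and 2101 genes at an unadjusted p under 0.05 (5.65% of genes), against 4747 (12.8%) for high dose against vehicle. There were 5 DEGs without the third slide and 12 without mouse 16. The medium dose had 55 DEGs (0.148% of genes) and the low dose 0 (2780 genes at an unadjusted p under 0.05, lowest adjusted p 0.156 in limma) against the same vehicle livers, whose values all 3 comparisons share. Side by side, the changes at the low, medium and high dose were 0.63, 1.18 and 1.54 for Mmrn2, 0.62, 1.03 and 1.52 for Ccnd1, and 0.42, 0.64 and 1.16 for Phlda3. Of the decreases, Mup6 was at 0.05, -0.60 and -2.18, Hsd3b5 at -0.12, -0.09 and -1.28, and Mup5 at 0.02, -0.05 and -0.90.

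**Figure D5:**
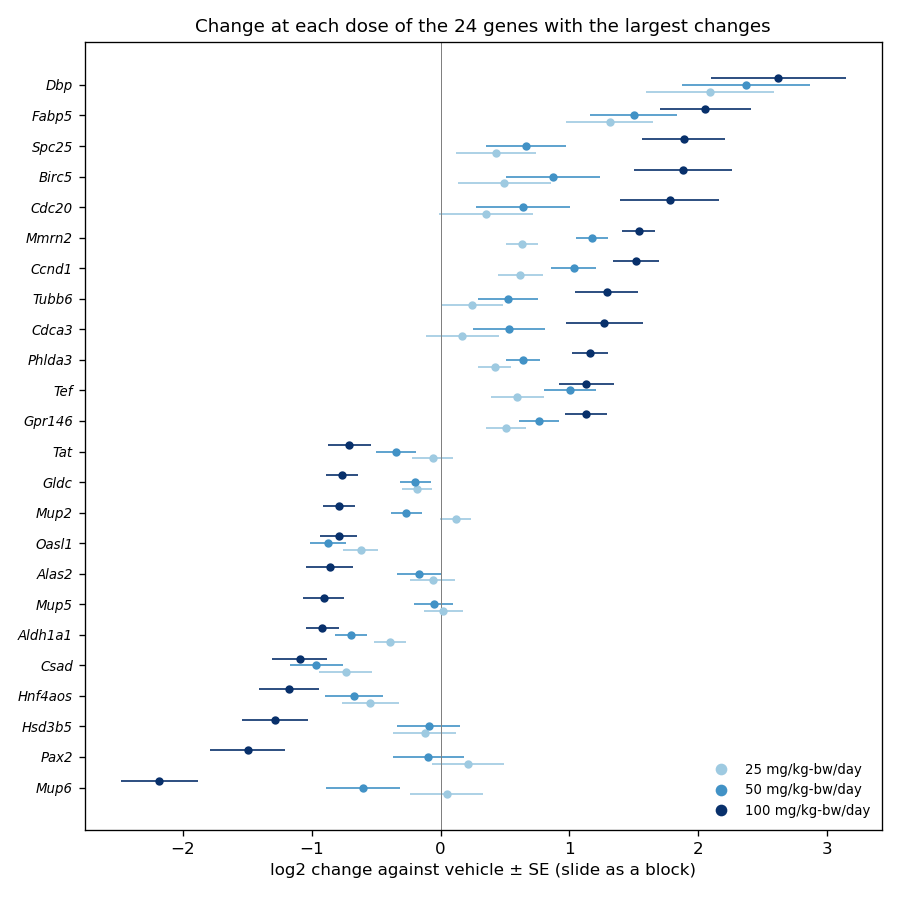
Change against vehicle (horizontal axis, log2, bars are ± 1 SE of the fit) at the low, medium and high dose for the 12 largest named increases and the 12 largest named decreases, all measured against the same 5 vehicle livers. Dbp lies above 2 at every dose, whereas Hsd3b5 and Pax2 lie near 0 at 25 and 50 mg/kg-bw/day and below -1 at 100 mg/kg-bw/day.

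The measured change at the high dose also differed between slides. The slides differ both in Cy5 signal and in their mice, and these cannot be told apart. A test of the change on the third slide against that on the second called 49 genes (0.132%), 5 with a higher and 44 with a lower change on the third (25 and 49 with median centring of the arrays in place of loess), and the third-slide side rests on vehicle mouse 5 alone. Lyve1 and Sp5 were among the 120 DEGs with a slide difference (adjusted p = 0.0175 and 0.0394 in limma), and for Mmrn2, Mdm2 and Gas6 the slide difference did not pass (adjusted p = 0.502, 0.996 and 0.865). Taken on its own, the second slide gave 463 DEGs (1.25%) and the third 46 (0.124%).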

How the data were processed

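Liver RNA of 20 mice was measured on 2-colour Agilent arrays, and 10 arrays (vehicle, high dose) are reported. The authors deposited scanner files with spot intensities (Feature Extraction 10.7.3.1, per the file headers, no dye swap) and a table of LOWESS-normalized log2 ratios, used here as an alternative. From the median intensities, without background subtraction, log2(Cy5/Cy3) was loess-normalized within each array and spots of a probe were averaged (55681 probes). The brightest probe stood for a gene (37163 genes, of which 20018 carry a symbol matched by accession). limma 3.58.1 (R 4.3.3) was fitted to the 20 arrays with dose group and slide, in place of the authors' permutation test. All p-values are 2-sided and Benjamini-Hochberg adjusted over all probes. The fit was run on simulated data. That run does not show how the fit performs on slides with unequal Cy5 signal and unequal spread of log2 ratios. Named genes were the 12 largest increases and 12 largest decreases among DEGs with a symbol, above background on every array of 1 group and of the same sign on both slides, the DEGs and first 3 members of each list, and Nab2 and Gas6. Members and lists were chosen with earlier results of these data known. Alternatives varied the block, samples, normalization, background correction, probe filter and array weights. Counts of DEGs per list under these settings were added after seeing the data. Promoters came from RefSeq (GRCm38.p6). Alignment of probes to the genome was not used here.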

Additional observations from a re-analysis of the deposited data

Results flagged for a closer look

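In 13 of 130 groups of 5 livers (65 named genes, slide effects removed), 1 liver stood apart: its gap to the nearest other liver, divided by the range of the group, was above 0.71, the 95% critical value of Dixon's test for 5 samples. In independent samples of equal spread, chance flags about 1 in 20 groups. These groups share mice and fitted slide effects, so that rate need not hold here. All values are log2 ratios after removal of the fitted slide effects, and so differ from the measured ratios given above.

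High-dose mouse 17 stood apart in 6 genes. It was at -1.71 for Birc5 with the nearest high-dose liver at -3.44, at -0.71 for Ccnd1 with the nearest at -1.28, and at 1.73 for Cd36 with the nearest at 0.78. It was at -2.18 for Top2a with the nearest at -3.14, at -0.70 for Cdk1 with the nearest at -1.70, and at -0.40 for Cyp1b1 with the nearest at -1.83. In the same group mouse 16 was at 5.82 for Mup2 with the nearest at 5.52, and mouse 19 was at 5.08 for Gldc with the nearest at 5.49.

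Vehicle mouse 5, the only vehicle liver on the third slide, was at 2.94 for S100a9 with the nearest vehicle liver at 2.01, at -0.98 for Ccng1 with the nearest at -1.69, and at 8.17 for Cps1 with the nearest at 7.47. Vehicle mouse 4 was at 0.34 for Cd74 with the nearest at -0.60 and at 3.12 for H2-Eb1 with the nearest at 2.27, both MHC class II genes.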

How the results depend on the processing

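The number of DEGs at the high dose (120) was 2 without the slide block, 12 with slide as a random block, 302 without the third slide, 48 without the first slide, 36 with only the 2 groups in the fit, 20 with median centring and 192 with array weights, and leaving out 1 mouse at a time gave 47 to 252. It stayed within 1.5 times under the other alternatives (scale normalization 95, normexp 115, the authors' processed values 111, probes above background 92, any probe 128). High against medium dose gave 5 DEGs without the third slide and 0 to 12 when 1 mouse was left out. The slide difference (49 genes) gave 74 with median centring and 15 among probes above background. Of 39 named DEGs, 2 passed without the block, 22 without the third slide, 13 with median centring, 37 with the authors' values and 39 with array weights. Without the block the sign turned for 15 of the 120 DEGs, Rhbg (-0.61) and Slc10a2 (-0.84) among them, and for Cyp1a2 (-0.54), H2-Aa (-0.28), H2-Ab1 (-0.31) and Stab2 (-1.15), which were not DEGs. It also turned for Stab2 with a random block (-0.16), for Cyp1a2 without the third slide (-0.13) and with median centring (-0.22), and for Cyp1b1 and Cdk1 without high-dose mouse 17 (-0.032 to 0.639 for Cyp1b1 and -0.015 to 0.448 for Cdk1 over the omissions of 1 mouse). The cause was not tested. The mitosis DEGs (3) were 0 with median centring and the clock DEGs (2) were 0 with it and without the first slide. No paired analysis was possible because vehicle and high-dose livers came from different mice that share no replicate number. Signal over background limits the third slide, whose lower spread of ratios an additive block does not undo.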

Other observations

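Other DEGs, chosen after their values were seen, belonged to cell types and functions named above. Egfl7, a factor secreted by endothelium, was at 1.44 and 1.33 in vehicle mice 1 and 2 against 1.97 and 2.12 in high-dose mice 16 and 17, and at 0.51 in vehicle mouse 5 against 1.19, 1.32 and 1.20 in mice 18, 19 and 20. The change was 0.66 ± 0.09 (SE, limma adjusted p = 0.000967) and was of like size on the second (0.66) and the third slide (0.72). Id1 and Id2, inhibitors of basic helix-loop-helix factors, rose by 1.20 ± 0.25 (adjusted p = 0.0256) and 1.01 ± 0.15 (adjusted p = 0.0015), and Id1 was above background in only 1 vehicle and 2 high-dose livers. Id1 changed by 2.28 on the second and 0.32 on the third slide, a difference that passed (adjusted p = 0.0022), and Id2 by 0.71 and 1.33, which did not (adjusted p = 0.662).

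Pttg1 (securin) rose by 0.83 ± 0.17 (limma adjusted p = 0.0238) and H2az1, a histone variant, by 0.71 ± 0.14 (adjusted p = 0.0196). Mouse 17 was above mouse 16 for both, at -0.52 against -1.80 for Pttg1 and -1.51 against -2.42 for H2az1. Another probe changed by 0.05 for Pttg1 and by 0.43 for H2az1, and neither passed. Slc10a2, the sodium-dependent bile acid transporter of ileum and bile ducts, rose by 0.84 ± 0.13 (adjusted p = 0.0026), by 1.13 on the second and 0.56 on the third slide, but was at -0.84 without the slide block. Among the decreases, Glo1 (glyoxalase 1) fell by 0.61 ± 0.11 on the log2 scale (adjusted p = 0.0128) and Aass, of lysine breakdown, by 0.65 ± 0.14 (adjusted p = 0.0366). Both changed more on the third slide, Aass by -0.32 on the second and -1.17 on the third, and Glo1 by -0.51 and -0.89.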
